A study of Mus musculus with 28 samples.

Results

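Autophagy and lysosome genes were examined in skeletal muscle of mice after an injection into the cerebral ventricles of the inflammatory cytokine interleukin 1b (IL-1b) or of vehicle. The list held 40 genes, and 37 of them had a probe set that the platform annotation tied to a single symbol equal to the gene's. They had 39 of the 17831 probe sets on the arrays. Optn, Atg14 and Atg16l1 had no such probe set and were not analysed here. The 28 arrays formed 6 groups. Vehicle and IL-1b groups at 2 h and at 4 h after injection held 5 arrays each, the vehicle group at 8 h held 5 and the IL-1b group at 8 h held 3. All animals thus had an injection into the brain, and no uninjected group was among the samples. The labels give neither strain, age nor the muscle taken, and they do not say whether every array came from its own mouse. The p-values therefore reflect only the spread among the arrays, which may be technical in part.

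Autophagy encloses cytoplasm in a double membrane, the autophagosome, which then fuses with a lysosome whose acid hydrolases break down the contents. The ULK kinase complex starts the process, a class III PI3-kinase complex marks the membrane with the lipid PI3P, and conjugation enzymes attach small ATG8 proteins (the LC3 and GABARAP families) to the growing membrane, where they also hold cargo receptors. In skeletal muscle, autophagy is one of the main routes of protein and organelle breakdown in fasting and wasting, and several of its genes are known targets of FoxO transcription factors, while Tfeb is known for switching on lysosomal genes through a site called CLEAR, which contains an E-box.

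The starts of 3 members are printed below as examples, with the letters that match an E-box or a variant of a FoxO site. Promoter windows run from 250 bases before to 50 bases after a gene's start and were taken from RefSeq (build GRCm38.p6, 5′ to 3′ on the gene's strand, the plus strand for all 3). A window was found for 32 of the 40 members. The window of Gabarapl1 is shown because this gene had the largest difference of all members, and those of Lamp1 and Mcoln1 because they are lysosomal genes with repeated E-boxes. They lie at chr6:129532942-129533241, chr8:13158911-13159210 and chr8:3500269-3500568. Capitals mark ATAAACA in Gabarapl1 and CACGTG in Lamp1 and Mcoln1.
Gabarapl1: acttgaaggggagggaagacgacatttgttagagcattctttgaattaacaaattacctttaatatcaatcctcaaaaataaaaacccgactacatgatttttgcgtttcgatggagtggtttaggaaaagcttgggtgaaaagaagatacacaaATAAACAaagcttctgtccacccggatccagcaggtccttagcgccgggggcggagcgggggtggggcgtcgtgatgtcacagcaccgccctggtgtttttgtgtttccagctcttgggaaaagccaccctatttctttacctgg
Lamp1: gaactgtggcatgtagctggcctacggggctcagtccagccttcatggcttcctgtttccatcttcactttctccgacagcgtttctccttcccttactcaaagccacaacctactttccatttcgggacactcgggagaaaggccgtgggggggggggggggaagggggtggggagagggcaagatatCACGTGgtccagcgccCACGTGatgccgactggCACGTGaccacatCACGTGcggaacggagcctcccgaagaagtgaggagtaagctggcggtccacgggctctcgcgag
Mcoln1: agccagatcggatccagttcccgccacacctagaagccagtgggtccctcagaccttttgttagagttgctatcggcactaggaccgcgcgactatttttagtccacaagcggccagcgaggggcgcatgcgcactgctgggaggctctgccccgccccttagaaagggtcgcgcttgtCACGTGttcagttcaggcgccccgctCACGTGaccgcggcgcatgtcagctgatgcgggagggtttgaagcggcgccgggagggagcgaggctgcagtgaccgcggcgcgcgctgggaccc

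The E-box CACGTG reads the same on both strands and was present in the windows of 8 of the 32 members (25%). Some members have several windows, and counted by window it was in 8 of 36 (22.2%), against 7.15% of 32851 mouse promoter windows of the same length. The 8 were the lysosomal genes Ctsa, Ctsd, Ctsl, Lamp1 and Mcoln1 and the autophagy genes Atg5, Atg14 and Bnip3. Counted from the gene's start, Lamp1 held it at -61, -45, -28 and -15 and Mcoln1 at -71 and -45. The full 10-base CLEAR element, which contains the E-box, was in 0 of the 32 members' windows and in 0.326% of all windows. The FoxO site GTAAACA, read on both strands, was also in 0 members and in 3.65% of all windows. Its variant ATAAACA was searched for after the Gabarapl1 window had been seen. It stood at -95 in Gabarapl1 and at -6 in Wipi2, which makes 2 of 32 members (6.25%) and 2 of their 36 windows (5.56%), against 4.6% of all windows. These matches describe letters in a window and not binding sites.

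The deposited values are log2 and centred on each probe set's median over the 28 arrays, so a value says how an array stands relative to the others for that gene and carries no level. Differences between groups below are on this log2 scale, with limma's standard error (SE). A member is said to have risen or fallen where limma's moderated test gave a Benjamini-Hochberg adjusted p under 0.01 over all 17831 probe sets, the false discovery rate in the design text. Array medians ran from -0.028 to 0.084. Over probe sets, 3 arrays had a wider spread (SD 0.298 to 0.330) than the others (at most 0.223). They were vehicle 2 h replicate 7, vehicle 8 h replicate 1 and IL-1b 8 h replicate 22, and values without them are given beside the members they moved by 0.1 or more at 8 h. Because values are centred, muscle fibre markers could not be checked by their level. In bulk muscle, fewer cells of a type and less RNA per cell cannot be told apart.

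Gabarapl1 was the 1 member that rose after IL-1b, and it did so at 8 h (1 of 37 members, 2.7%, against 2.09% of all probe sets called in this comparison and 1.02% called higher). It encodes a GABARAP-family ATG8 protein that is joined to lipid on the autophagosome membrane. At 8 h the IL-1b arrays read 0.91 (replicate 14), 0.64 (replicate 22) and 0.91 (replicate 26). The vehicle arrays of that time read -0.26 (replicate 1), -0.26 (replicate 9), 0.22 (replicate 13), 0.43 (replicate 17) and 0.0037 (replicate 21). All 3 IL-1b arrays lay above all 5 vehicle arrays, which spread widely among themselves. The difference was 0.79 ± 0.13 (SE, n = 3 and 5), 1.73-fold, with a 95% interval from 0.53 to 1.05 (limma adjusted p = 0.000195). This fold was just short of the 1.75-fold that the study's design text asks for.

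At the earlier times Gabarapl1 did not separate the treatments. At 2 h the IL-1b arrays read -0.35 (replicate 2), -0.01 (replicate 4), -0.22 (replicate 8), -0.08 (replicate 10) and -0.0067 (replicate 12). The vehicle arrays at 2 h read -0.39 (replicate 1), -0.22 (replicate 5), -0.29 (replicate 7), -0.02 (replicate 9) and -0.08 (replicate 11). Both groups lay below 0 and overlapped, with a difference of 0.06 ± 0.11 (adjusted p = 0.825 by limma). At 4 h the IL-1b arrays read 0.23 (replicate 4), 0.16 (replicate 13), 0.09 (replicate 15), 0.14 (replicate 18) and -0.0037 (replicate 22). The vehicle arrays at 4 h read 0.12 (replicate 1), 0.13 (replicate 3), 0.06 (replicate 5), -0.02 (replicate 7) and 0.35 (replicate 17), and the difference was -0.01 ± 0.11 (limma adjusted p = 0.993). The IL-1b effect at 8 h exceeded that at 4 h by 0.80 ± 0.17 (adjusted p = 0.0201) and that at 2 h by 0.73 ± 0.17 (adjusted p = 0.0232), and neither difference of effects passed limma's test at the threshold. Without vehicle 8 h replicate 17, the highest vehicle array of that time, both did, at 0.90 (adjusted p = 0.00283) and 0.83 (adjusted p = 0.00371). Over all single arrays left out, the first ran from 0.73 to 0.90, with limma adjusted p up to 0.0865. The second ran from 0.65 to 0.83, with limma adjusted p up to 0.0673.

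The 8 h call for Gabarapl1 was kept when any 1 of the 8 arrays of that time was left out (0.72 to 0.89) and without the 3 arrays of widest spread (0.81, limma adjusted p = 0.000938). It was lost after a further quantile normalization, where the difference was 0.49 (adjusted p = 0.048), and in limma's fit to the 2 groups of that time alone (adjusted p = 0.0723).

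**Figure D1:**
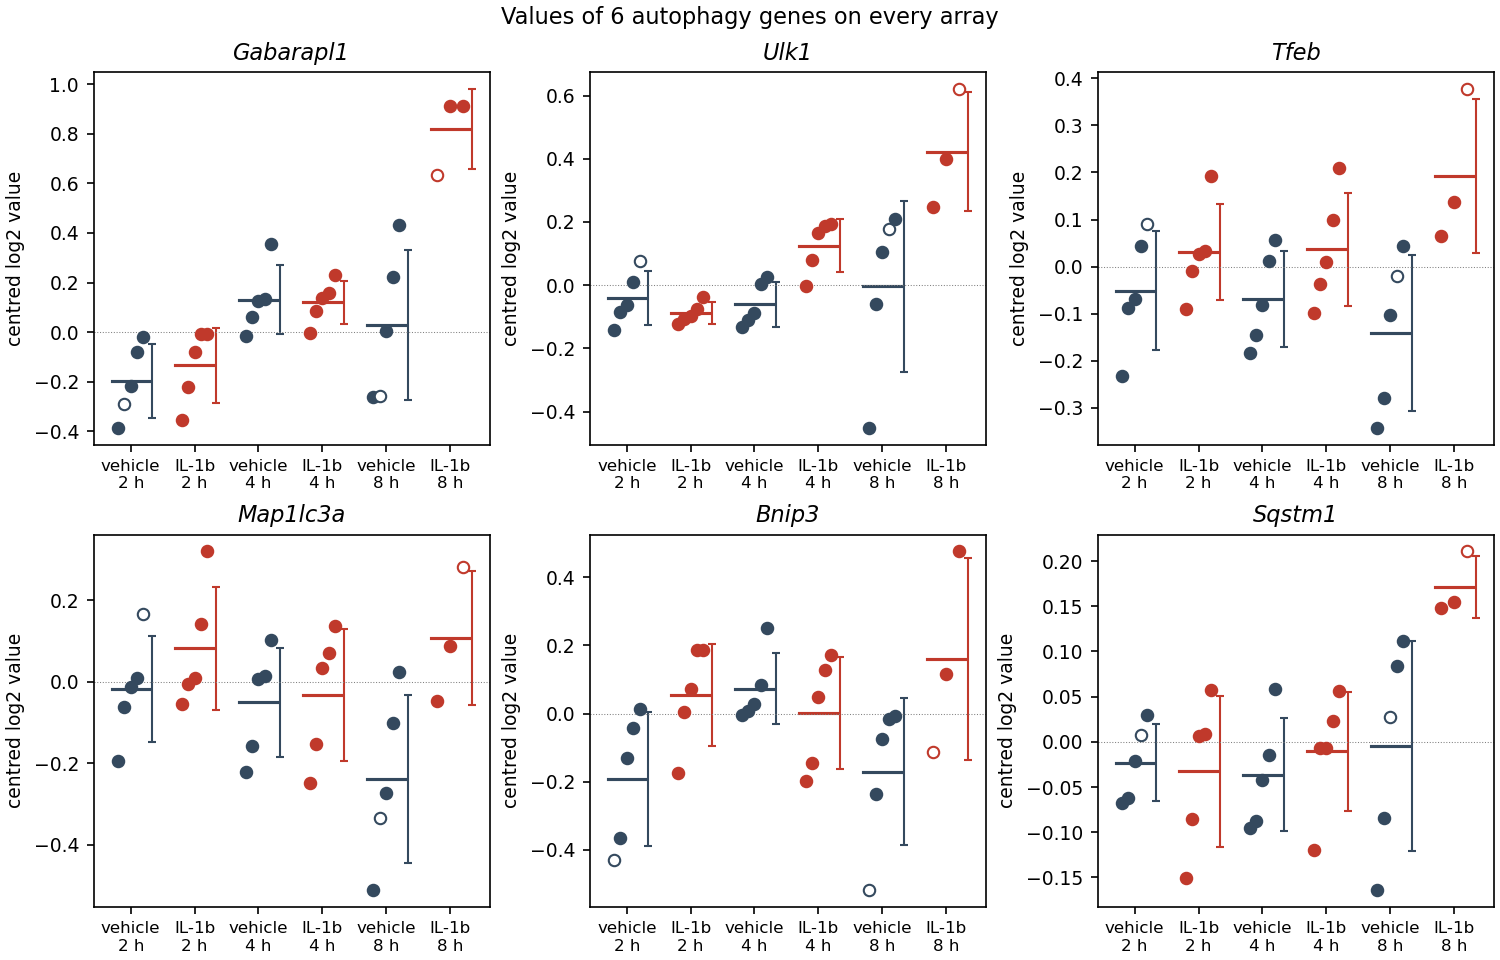
Centred log2 values of 6 members in each of the 28 arrays, by treatment and time. Points are arrays, open points the 3 arrays of widest spread, lines group means and bars the SD (n = 5, and 3 for IL-1b at 8 h); the IL-1b 8 h arrays of Gabarapl1 sit between 0.64 and 0.91, above all vehicle arrays of that time.

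The other ATG8 genes did not pass at any time. Map1lc3a, which encodes the LC3A protein, read 0.09, 0.28 and -0.05 in IL-1b replicates 14, 22 and 26 at 8 h. Its vehicle arrays read -0.33, -0.51, 0.02, -0.10 and -0.27 in replicates 1, 9, 13, 17 and 21, so that the lowest IL-1b array fell within the vehicle range. The difference was 0.35 ± 0.11 (limma adjusted p = 0.0977), and 0.24 ± 0.13 without the 3 arrays of widest spread. Map1lc3b, the gene of the LC3B protein used as an autophagosome marker, differed by 0.23 ± 0.08 at 2 h (adjusted p = 0.321), by -0.02 ± 0.08 at 4 h (adjusted p = 0.977) and by 0.21 ± 0.10 at 8 h (adjusted p = 0.320) by limma. Without the 3 arrays of widest spread its 8 h difference was 0.33 ± 0.09 (limma adjusted p = 0.0407), and without IL-1b 8 h replicate 14 it was 0.08. Gabarap had all 5 IL-1b arrays at 2 h (0.0009 to 0.11) above all 5 vehicle arrays (-0.19 to -0.0001). It was the 1 of 37 members whose 2 h groups did not overlap with IL-1b above, as 1.1% of all probe sets did. The gap between these groups was small beside their spread, the difference was 0.14 ± 0.07 (limma adjusted p = 0.459), and at 8 h it was -0.0004 with an interval from -0.16 to 0.16. For Gabarapl2, the probe set used differed by -0.15 and its second probe set by 0.02 at 8 h. The first differed by -0.05 without the 3 arrays of widest spread.

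Of the ULK complex, which starts autophagosome formation, Ulk1 (the kinase itself) came closest to the threshold at 8 h. Its IL-1b arrays read 0.25 (replicate 14), 0.62 (replicate 22) and 0.40 (replicate 26). The vehicle arrays read 0.18 (replicate 1), -0.45 (replicate 9), 0.11 (replicate 13), 0.21 (replicate 17) and -0.06 (replicate 21). The groups did not overlap, although the lowest IL-1b array and the highest vehicle array lay close together. The difference was 0.43 ± 0.10, 1.34-fold, with an interval from 0.22 to 0.64 (limma adjusted p = 0.0137). It passed without vehicle 8 h replicate 1 or 17 or without IL-1b 8 h replicate 14, and did not pass without the 3 arrays of widest spread (0.37, limma adjusted p = 0.0625). Over all single arrays left out, it ran from 0.31 to 0.51, with limma adjusted p from 0.00611 to 0.132. At 2 h and 4 h Ulk1 differed by -0.05 ± 0.09 and 0.19 ± 0.09, without passing (limma adjusted p = 0.846 and 0.555). Over the 6 groups together, limma's moderated F-test gave adjusted p = 0.00781 for Ulk1 and 3.2e-05 for Gabarapl1, and these were the 2 members under 0.01, against 6.14% of all probe sets. With a change of at least 1.75-fold at any time also required, as in the design text, 0 members were selected, against 0.684% of all probe sets.

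Atg13, the regulatory subunit of the complex, read 0.21 to 0.31 in the 3 IL-1b arrays at 8 h and -0.10 to 0.27 in the vehicle arrays, which overlapped. Its difference of 0.21 ± 0.07 did not pass (limma adjusted p = 0.118). Ulk2, the related kinase, and Rb1cc1, the scaffold FIP200, differed by -0.04 ± 0.10 and -0.01 ± 0.17 at 8 h. Rb1cc1 differed by 0.12 ± 0.13 without the 3 arrays of widest spread.

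Tfeb, the regulator of lysosomal genes, showed a smaller difference of the same sign at 8 h. The IL-1b arrays read 0.14 (replicate 14), 0.38 (replicate 22) and 0.06 (replicate 26). The vehicle arrays read -0.02 (replicate 1), -0.34 (replicate 9), 0.04 (replicate 13), -0.10 (replicate 17) and -0.28 (replicate 21). The groups did not overlap, by a margin that was small against the spread within each. The difference was 0.33 ± 0.09, 1.26-fold (limma adjusted p = 0.0423), and without the 3 arrays of widest spread it was 0.27 (limma adjusted p = 0.181). At 2 h and at 4 h it was 0.08 ± 0.08 and 0.11 ± 0.08.

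Cargo receptors link what is to be degraded to the ATG8 proteins. Sqstm1 encodes p62, the receptor of ubiquitinated proteins, and its IL-1b arrays at 8 h read 0.15, 0.21 and 0.15, above the vehicle arrays, which ran from -0.16 to 0.11. The difference was 0.18 ± 0.06 and did not pass (limma adjusted p = 0.142). Bnip3, a mitochondrial receptor of mitophagy, read 0.48, -0.11 and 0.12 in IL-1b replicates 14, 22 and 26. Its vehicle arrays ran from -0.52 to -0.0063, so the groups overlapped, and the difference was 0.33 ± 0.13 (limma adjusted p = 0.214). Its paralogue Bnip3l differed by 0.03 ± 0.10 and Nbr1, a receptor related to p62, by 0.06 ± 0.07.

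**Figure D2:**
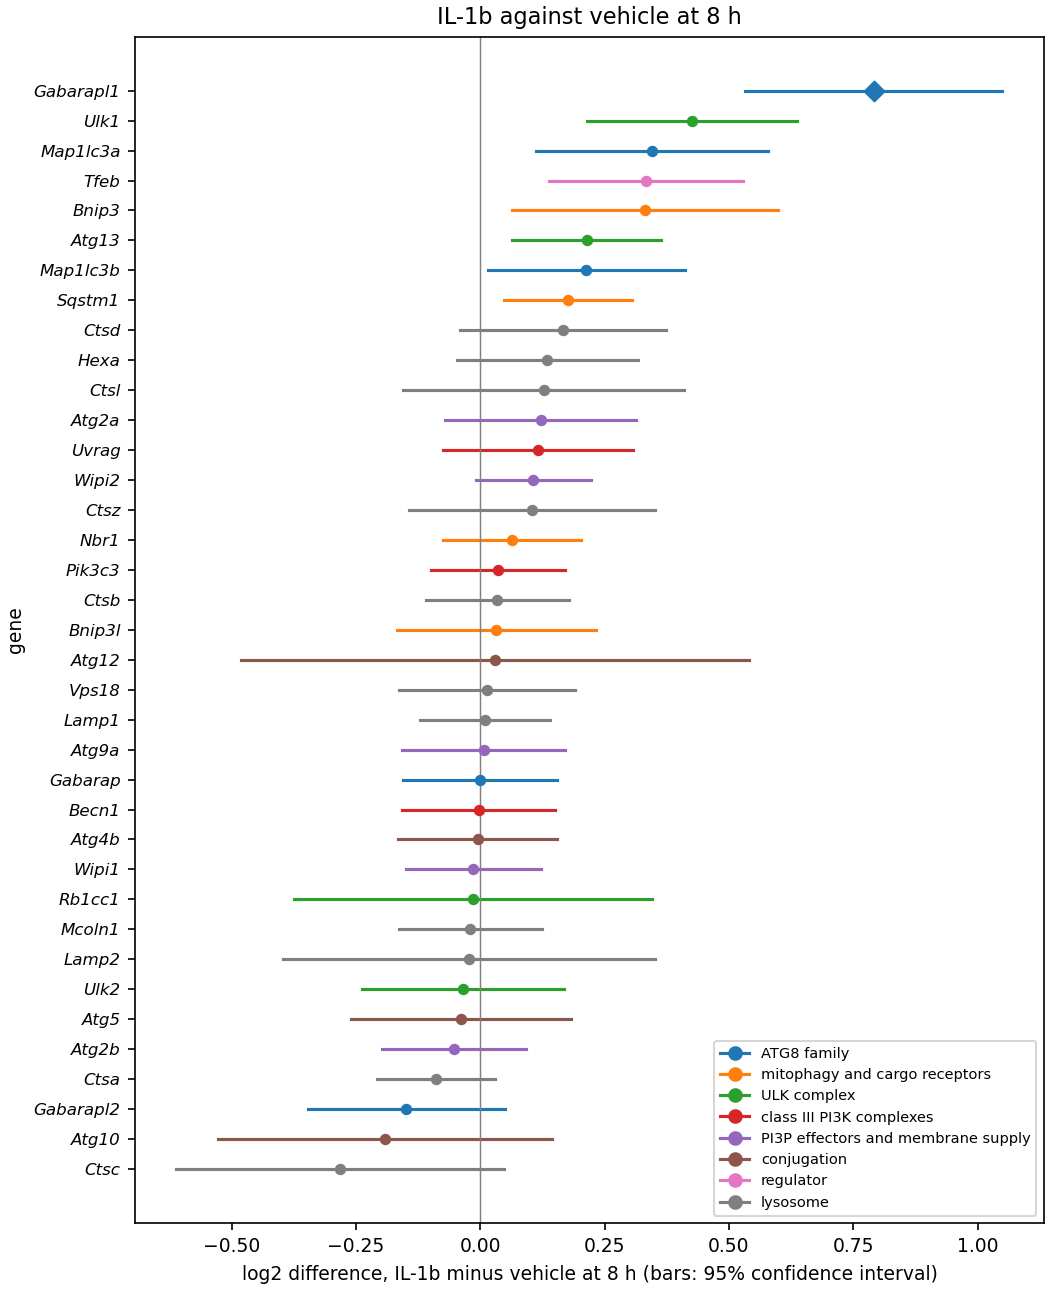
Difference between IL-1b and vehicle at 8 h for the 37 measured members (log2, points) with 95% intervals (bars), in order of size and coloured by role. The diamond marks the 1 member past the threshold, Gabarapl1 at 0.79, and the lowest value is that of Ctsc at -0.28.

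Genes of the membrane-building steps did not pass at 8 h. Among the class III PI3-kinase genes, which make PI3P, differences ran from -0.0032 (Becn1, the Beclin scaffold) through 0.04 (Pik3c3, the lipid kinase) to 0.12 (Uvrag, a subunit of the endosomal complex). The PI3P effectors and lipid suppliers ran from -0.05 (Atg2b, a lipid transfer protein) to 0.12 (Atg2a, its paralogue), and the second probe set of Atg2b differed by 0.10. Within this group the IL-1b arrays of Wipi2, a PI3P-binding protein that recruits the conjugation enzymes, read 0.06 to 0.08 and lay above the vehicle arrays (-0.15 to 0.04). Its difference of 0.11 ± 0.06 did not pass (limma adjusted p = 0.455). Wipi1, a relative of Wipi2, and Atg9a, the membrane protein of the vesicles that seed autophagosomes, differed by -0.01 and 0.0065. The conjugation genes ran from -0.19 (Atg10, which conjugates Atg12 to Atg5) to 0.03 (Atg12), with Atg5 at -0.04 and the protease gene Atg4b at -0.0052. The values of Atg10 and Atg12 turned on single arrays. Without IL-1b 8 h replicate 22 Atg10 differed by 0.07 and Atg12 by 0.46, and without IL-1b 8 h replicate 14 by -0.39 and -0.25. Without the 3 arrays of widest spread they differed by -0.03 ± 0.12 and 0.36 ± 0.18 (limma adjusted p = 0.960 and 0.384).

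Lysosomal genes did not pass at 8 h either, 0 of 11 in each direction. The cathepsins, lysosomal proteases, ran from -0.28 ± 0.16 for Ctsc (limma adjusted p = 0.523) to 0.17 ± 0.10 for Ctsd (limma adjusted p = 0.570), with Ctsa at -0.09, Ctsb at 0.03, Ctsz at 0.10 and Ctsl at 0.13. The value of Ctsc was -0.02 without IL-1b 8 h replicate 22, -0.50 without IL-1b 8 h replicate 14 and -0.15 ± 0.10 without the 3 arrays of widest spread, and that of Ctsd was 0.06 ± 0.11 without those 3. Ctsl encodes cathepsin L, whose transcript is known to rise in atrophying muscle. Hexa, a subunit of a hexosaminidase, differed by 0.13. Lamp1 differed by 0.01 (95% interval -0.12 to 0.14) and Mcoln1, the lysosomal calcium channel, by -0.02 (-0.16 to 0.12). Without the 3 arrays of widest spread these were -0.05 ± 0.06 and 0.12 ± 0.06, neither past the threshold (limma adjusted p = 0.850 and 0.390). Lamp2, the other main lysosomal membrane protein, differed by -0.02 with a wide interval (-0.40 to 0.35), and by 0.12 ± 0.12 without those 3 arrays. Vps18, a tethering subunit for lysosome fusion, differed by 0.01.

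Counted over roles, 5 of the 37 members had all IL-1b arrays above all vehicle arrays at 8 h (Gabarapl1, Ulk1, Tfeb, Sqstm1 and Wipi2), where 2.74% of all probe sets did, and 0 had them below, where 3.93% did. An unadjusted p under 0.05 was reached by 8 members at 8 h, all with IL-1b higher, and by 12.9% of all probe sets, 5.18% higher and 7.72% lower. The median difference of the 37 members was 0.03 and that of all probe sets -0.0004. The members were chosen with earlier results of these data known. Their counts, here and in the other comparisons, are therefore no test against the shares of all probe sets.

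At 2 h, 0 of 37 members passed, where 0.0729% of all probe sets were called. An unadjusted p under 0.05 was reached by 7 members, 5 higher and 2 lower, and by 10.6% of all probe sets, 4.8% higher and 5.77% lower. The largest differences were those of Atg12 (0.26 ± 0.21), Rb1cc1 (0.26 ± 0.15) and Bnip3 (0.25 ± 0.11), and the lowest those of Ctsz (-0.22 ± 0.10), Ctsd (-0.19 ± 0.09) and Ctsc (-0.13 ± 0.14). Without vehicle 2 h replicate 7, Atg12 differed by 0.08, Rb1cc1 by 0.15, Bnip3 by 0.19 and Ctsc by -0.21. All limma adjusted p-values at 2 h were 0.321 or above. The median of the members was 0.05 and that of all probe sets -0.02. At 4 h, 0 of 37 members passed as well, where 0.847% of all probe sets were called, and 3 had an unadjusted p under 0.05, as 8.78% of all probe sets did. They were Ulk1 (0.19), Atg9a (0.14 ± 0.07) and, lower, Atg5 (-0.23 ± 0.09). Tfeb was the third highest at 0.11, and the lowest values beside Atg5 were those of Atg12 (-0.28 ± 0.21) and Ctsc (-0.24 ± 0.14). Without IL-1b 4 h replicate 15, Atg12 differed by -0.15 and Tfeb by 0.06. The median was -0.01 against 0.0033 for all probe sets, and all limma adjusted p-values at 4 h were 0.366 or above. Between times, 0 members passed for a difference of IL-1b effects, where 0.0505% (4 h against 2 h), 0.174% (8 h against 4 h) and 0.527% (8 h against 2 h) of all probe sets were called.

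**Figure D3:**
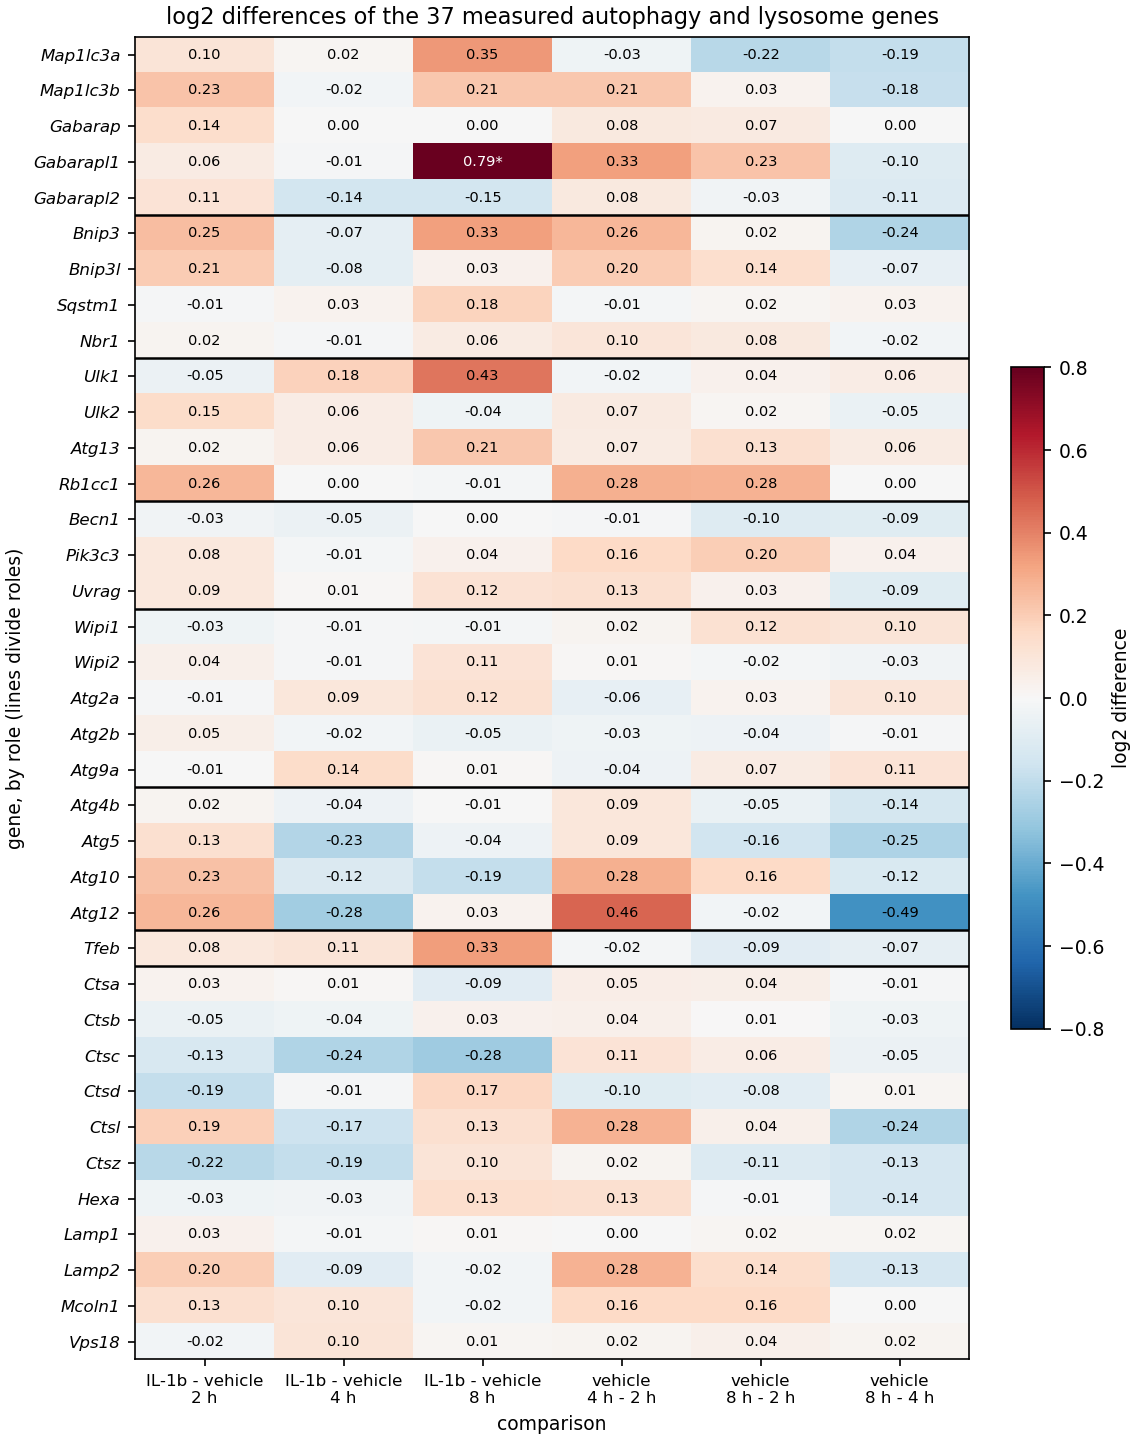
Differences (log2, printed in each cell and coloured) of the 37 measured members in 6 comparisons, IL-1b against vehicle at 2, 4 and 8 h and vehicle groups against each other. An asterisk marks an adjusted p under 0.01, which 1 cell carries, Gabarapl1 at 8 h (0.79).

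In the vehicle groups, 0 of 37 members passed in any pair of times. The shares of all probe sets called were 0.101% for 4 h against 2 h, 0.852% for 8 h against 2 h and 0.129% for 8 h against 4 h. At 4 h, 8 members were higher than at 2 h at an unadjusted p under 0.05 and 0 were lower, where 4.91% of all probe sets were higher and 6.28% lower by this mark. Without vehicle 2 h replicate 7, Atg12 differed by 0.28 (0.46 with it) and Ctsl by 0.18 (0.28 with it). Bnip3l then differed by 0.13 (0.20), Map1lc3b by 0.16 (0.21) and Pik3c3 by 0.15 (0.16). Gabarapl1 was also 1 of the 8 and differed by 0.31 without that array. Its 5 vehicle arrays at 4 h (-0.0176 to 0.35) lay above its 5 vehicle arrays at 2 h (-0.39 to -0.0198), as those of 0.841% of probe sets did, by 0.33 ± 0.11 (limma adjusted p = 0.233). At 8 h the vehicle arrays of this gene (-0.26 to 0.43) overlapped both ranges. Pik3c3 had the lowest adjusted p of any member over time, with 0.20 ± 0.06 between 8 h and 2 h (limma adjusted p = 0.0770). Between 8 h and 4 h, 5 members were lower at an unadjusted p under 0.05 and 0 were higher, where 3.91% of all probe sets were lower and 4.51% higher. Bnip3 (by -0.24) and Atg12 (by -0.49) had all vehicle 8 h arrays below all vehicle 4 h arrays, as 0.965% of probe sets did. Without vehicle 8 h replicate 1 these were -0.16 and -0.39. The comparison of IL-1b with vehicle at 2 h and the comparison of vehicle at 4 h with 2 h share the vehicle 2 h arrays. The 7 members with an unadjusted p under 0.05 at 2 h had these differences in the first and the second comparison. Map1lc3b differed by 0.23 and 0.21, Gabarap by 0.14 and 0.08, Bnip3 by 0.25 and 0.26, Bnip3l by 0.21 and 0.20, Mcoln1 by 0.13 and 0.16, Ctsd by -0.19 and -0.10 and Ctsz by -0.22 and 0.02. Gabarapl1 differed by 0.06 and 0.33.

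Many members stood low on the 3 arrays of widest spread. Compared with the other arrays of their group, 20 of 37 members were lower on all 3 (54.1%, against 23.4% of all probe sets) and 7 were higher on all 3 (18.9%, against 40.3%). The lowest were Atg12 (-0.93 on vehicle 2 h replicate 7, -0.49 on vehicle 8 h replicate 1 and -1.28 on IL-1b 8 h replicate 22) and Lamp2 (-0.78, -0.57 and -0.76). Among the higher ones were Ulk1 (0.15, 0.23 and 0.30) and Tfeb (0.18, 0.15 and 0.28). Gabarapl1 was lower on them (-0.11, -0.36 and -0.28). What sets these arrays apart was not tested. Within groups the members' residual SD had a median of 0.128, from 0.063 for Wipi2 to 0.365 for Atg12, against 0.146 for all probe sets. Deviations from group means correlated with a median r of 0.166 over 666 pairs of members (n = 28 arrays, which share RNA and array between the genes of a pair). The highest was r = 0.941 for Ulk2 and Rb1cc1, and without the 3 arrays it was 0.866.

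**Figure D4:**
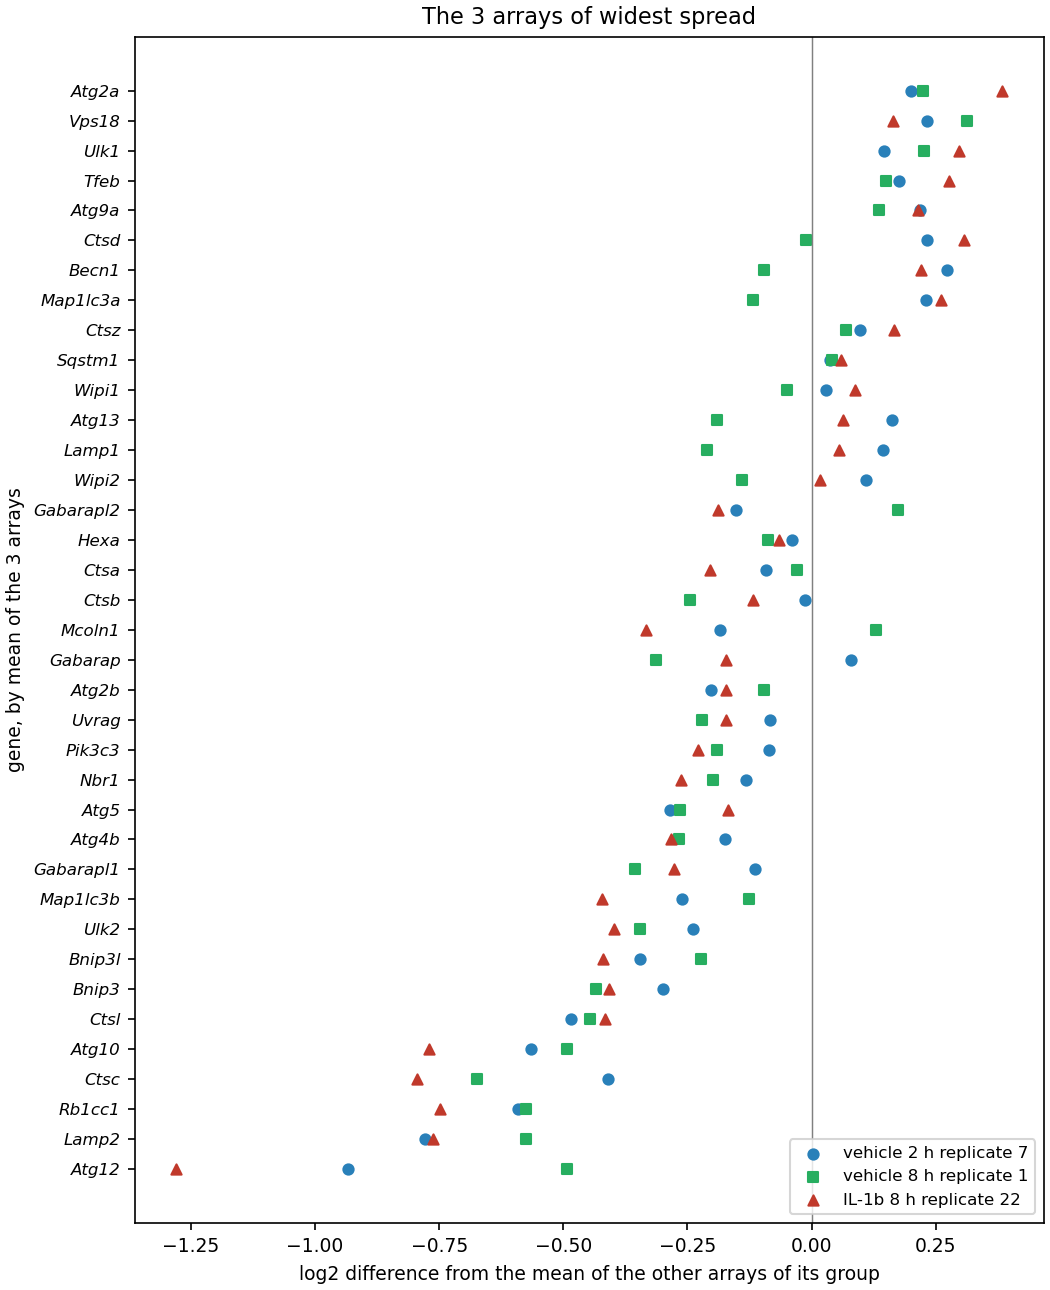
Each of the 3 arrays of widest spread minus the mean of the other arrays of its group (log2), for the 37 measured members, with 1 marker type per array. Atg12 and Lamp2 lie lowest, and Ulk1 and Tfeb are among the 7 members that lie above 0 on all 3.

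Other cell types' markers were read on the same arrays. At 8 h, 0 of 11 macrophage, 10 neutrophil, 8 endothelial, 8 fibroblast, 5 adipocyte and 7 muscle fibre markers passed. The median differences were 0.12, 0.04, -0.21, -0.63, 0.22 and 0.00015 in that order. The mean of the macrophage markers ran from 0.02 to 0.31 in the IL-1b arrays and from -0.13 to 0.07 in the vehicle arrays, and that of the fibroblast markers from -0.67 to 0.11 and from -0.06 to 0.45. The endothelial means barely separated at 8 h, with -0.12 to -0.0302 in the IL-1b arrays and -0.0282 to 0.26 in the vehicle arrays. The lowest vehicle array was replicate 1, an array of widest spread. Pecam1 and Esam were higher in the IL-1b group (means 0.15 against 0.08 and 0.14 against 0.05), and the other endothelial markers were lower. The muscle fibre means overlapped (-0.06 to 0.02 against -0.09 to 0.03). At 4 h, 1 of the 8 endothelial markers fell (Kdr) and 0 of the other lists' markers passed, and the endothelial means ran from -0.29 to -0.06 in the IL-1b arrays and from -0.12 to 0.12 in the vehicle arrays. The median difference of the endothelial markers was -0.13. Kdr had by far the largest, with group means of -0.84 (IL-1b) and 0.10 (vehicle), and only Esam was higher, at 0.16 and -0.13. At 2 h, 1 of the 10 neutrophil markers rose (Retnlg) and 0 of the others passed, with a median difference of -0.58 for the fibroblast and -0.34 for the macrophage markers. Centred values do not show which markers are at 0, and the part of these cell types in the differences above was not tested.

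Of 102 other measured genes of the pathway, 0 passed at 2 h, 6 rose and 0 fell at 4 h (5.88%), and 6 rose and 2 fell at 8 h (7.84%), where 0.0729%, 0.847% and 2.09% of all probe sets were called. The list held 26 further autophagy genes, 42 further lysosomal genes, 15 subunits of the V-ATPase (the proton pump that acidifies lysosomes) and 19 upstream regulators. These genes were chosen with earlier results of these data known. Their shares of calls are therefore no test against the shares of all probe sets. The forkhead factors Foxo1 and Foxo3, known activators of autophagy genes in muscle, rose at both times, by 1.03 and 0.48 at 4 h and by 1.23 and 0.79 at 8 h. Depp1, a FoxO target gene that regulates autophagy, rose by 1.39 and 2.57, and Ddit4, an inhibitor of mTORC1, rose by 3.14 at 4 h. Ddit4 did not pass at 8 h. At 2 h Depp1 and Ddit4 fell short of the threshold but were under 0.05 (limma adjusted p = 0.0385 and 0.0465). The largest 2 h differences were 1.04 among the further autophagy genes and 1.85 among the upstream regulators. For Foxo3 the call at 4 h was lost without vehicle 4 h replicate 3 (limma adjusted p = 0.0122) or 17 (0.0164) or IL-1b 4 h replicate 18 (0.0126).

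Among further autophagy genes, Trp53inp1, whose product binds ATG8 proteins, rose at 4 h by 0.78 ± 0.11 (limma adjusted p = 4.85e-05), with IL-1b arrays from 0.57 to 0.79 and vehicle arrays from -0.40 to 0.23. Dapk1, a kinase that phosphorylates Beclin, rose at 8 h by 0.93 ± 0.11 (limma adjusted p = 7.69e-06), with IL-1b arrays from 0.60 to 0.78 and vehicle arrays from -0.40 to 0.01. The groups of both genes were apart. In the vehicle arrays Dapk1 was lower at 8 h than at 2 h by -0.49 ± 0.10 (limma adjusted p = 0.00626), and this call was lost when any of 7 of the 10 arrays was left out (replicates 1, 5 and 9 of vehicle 2 h and 1, 9, 13 and 21 of vehicle 8 h) and in a fit to the 15 vehicle arrays alone (limma adjusted p = 0.0284). Sesn1, a sestrin that restrains mTORC1, rose at 8 h by 1.56 ± 0.18 (limma adjusted p = 3.23e-06).

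Of the 42 further lysosomal genes, Npc1, which exports cholesterol from lysosomes, rose at both later times. It rose by 0.54 ± 0.09 at 4 h (limma adjusted p = 0.000781) and by 0.92 ± 0.10 at 8 h (limma adjusted p = 2.5e-06). Its IL-1b arrays ran from 0.46 to 0.64 at 4 h and from 0.83 to 1.17 at 8 h, above the vehicle arrays of each time (up to 0.19 and 0.37). The hydrolase genes Gla (alpha-galactosidase) and Manba (beta-mannosidase) fell at 8 h. Gla was at -0.37 to -0.28 in the IL-1b arrays and -0.09 to 0.20 in the vehicle arrays, a difference of -0.39 ± 0.08 (limma adjusted p = 0.00262). This call was lost without IL-1b 8 h replicate 22 (limma adjusted p = 0.0225) or 26 (0.0111). Manba was at -0.38 to -0.26 and -0.04 to 0.20, a difference of -0.41 ± 0.06 (limma adjusted p = 0.000174). None of the 15 V-ATPase genes passed at 2, 4 or 8 h, and at these times 2, 3 and 1 of them had an unadjusted p under 0.05. Of all probe sets, 10.6%, 8.78% and 12.9% reached that mark. With array weights 2 passed at 4 h, Atp6v0a1 at 0.21 (limma adjusted p = 0.00795) and Atp6v1a at -0.31 (limma adjusted p = 0.000711), against adjusted p = 0.0736 and 0.0390 without weights. The share of all probe sets called with weights is not given here. Among the 42 lysosomal genes as a whole, 8 had an unadjusted p under 0.05 at 8 h, 1 higher and 7 lower, with a median of -0.04, where 12.9% of all probe sets reached it, 5.18% higher and 7.72% lower. A fit to the 2 groups of 8 h alone ended the calls of Npc1, Foxo3, Gla and Manba at that time, a trended and robust variance prior those of Npc1 and Foxo3 at 4 h, and a further quantile normalization that of Gla.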

How the data were processed

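RNA of the 28 muscle samples was measured on Affymetrix whole-transcript arrays. Per the submitters' processing notes the authors used RMA and mm9, and the deposited values were taken as log2, the scale that RMA gives. They are centred per probe set, so dim probes could not be filtered. Depth does not apply to arrays, and the number of arrays limits the precision. Groups and replicate numbers came from the sample titles. In 1 IL-1b 4 h title a digit stood where the others have the treatment letter, and replicate 18 was read by their pattern. Gene symbols came from the platform annotation (15620 probe sets with 1 symbol, 1370 with several, 841 with none listed), and the lowest-numbered probe set stood for a gene with several.

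A linear model over the 6 groups was fitted to all 28 arrays with limma 3.58.1 in R 4.3.3 (22 residual and 3.95 prior degrees of freedom) and was tested on simulated data. Every adjusted p printed is Benjamini-Hochberg over 17831 probe sets, with a threshold of 0.01. All members, the values of each that passed, and the 3 largest differences in each direction were to be named. Motifs and the other gene lists were read by script. The members, the lists and the rule for naming were chosen with earlier results of these data known. The alternatives were other normalizations, array weights, another variance prior, another threshold, smaller fits and leaving out arrays. No 2 arrays of a group were identical.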

Additional observations from a re-analysis of the deposited data

Results flagged for a closer look

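Among the members, 9 of 185 groups of 5 arrays (4.86%, where chance gives about 1 in 20) had 1 array far from the other 4 by Dixon's test. IL-1b 2 h replicate 2 was that array in 4 of them, at -0.26 for Rb1cc1, -0.36 for Ctsc, -0.40 for Lamp2 and 0.052 for Vps18. Vehicle 2 h replicate 7 was apart for Atg12 (-0.99) and Ctsc (-0.31), and vehicle 8 h replicate 1 for Bnip3l (-0.22) and Ctsc (-0.46). These are 2 of the 3 arrays of widest spread. Vehicle 4 h replicate 7 was apart for Ctsb (0.14).

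The IL-1b effect differed between times for 5 other genes of the pathway by limma's test of the difference of effects. From 2 h to 8 h it grew by 1.18 ± 0.15 for Dapk1 (adjusted p = 7.55e-05), 0.81 ± 0.14 for Npc1 (0.00192), 0.99 ± 0.14 for Foxo1 (0.000157), 0.80 ± 0.14 for Foxo3 (0.00209) and 1.17 ± 0.24 for Sesn1 (0.00953). From 4 h to 8 h it grew by 0.95 ± 0.15 for Dapk1 (0.00145), and from 2 h to 4 h by 0.79 ± 0.13 for Foxo1 (0.00682). Leaving out 1 array ended the call of Sesn1 for 16 of 18 arrays (adjusted p up to 0.0319), that of Foxo1 between 2 h and 4 h for 14 of 20 (up to 0.0195), that of Npc1 without IL-1b 8 h replicate 26 (0.0112) and that of Foxo3 without IL-1b 8 h replicate 22 (0.0141).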

How the results depend on the processing

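The count of members past the threshold stayed at 0 for IL-1b at 2 h and 4 h, for the vehicle comparisons and for the effect at 4 h against 2 h under every alternative run. At 8 h it was 0 after a further quantile normalization or in a fit to the 2 groups, 2 with array medians subtracted or with array weights (Gabarapl1 and Ulk1), 3 at a threshold of 0.05 (with Tfeb) and 1 to 2 with single arrays left out. For the effect at 8 h against 4 h and against 2 h it was 1 (Gabarapl1) with array weights and at 0.05, and 0 to 1 with single arrays left out. The shares of all probe sets called under these alternatives are not given here. Whether the higher counts exceed a general rise in calls therefore cannot be read from them. With no minimum change, the F-test selected 2 members. Signs turned for Gabarapl1 at 4 h without vehicle replicate 17 (0.046) or IL-1b replicate 22 (0.021), over a range with single arrays left out of -0.047 to 0.046, Gabarapl2 at 8 h with array weights (0.0014), Atg10 at 8 h without IL-1b replicate 22 (0.066, range -0.39 to 0.066), Atg9a in vehicle at 4 h against 2 h without vehicle 2 h replicate 7 or the 3 widest arrays (0.0035 for both, range -0.089 to 0.0035), and Mcoln1 for the effect at 8 h against 4 h without the 3 widest arrays (0.018). None of these values passed.

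For the 102 other pathway genes, the count at 2 h was 1 after quantile normalization, 3 with array weights and 2 at a threshold of 0.05, and stayed at 0 with single arrays left out. At 4 h it was 10 with array weights (8 higher and 2 lower, Atp6v1a and Laptm4b) and 5 to 6 with single arrays left out. At 8 h it was 4 in a fit to the 2 groups and 7 to 9 with single arrays left out. In vehicle at 8 h against 2 h it was 2 at 0.05, 0 to 1 with single arrays left out, and 0 after quantile normalization, with array weights, with a trended and robust prior, without the 3 widest arrays, in a fit to the 2 groups and in fits to the 15 vehicle arrays with or without the replicate block. The last fit, without the block, was chosen after seeing the data. For the effect at 4 h against 2 h it was 2 with array weights, 0 with the trended prior or without the 3 widest arrays, and 0 to 1 with single arrays left out. At 8 h against 4 h it was 0 after quantile normalization or without the 3 widest arrays and 2 with array weights or at 0.05, and 1 with any single array left out. At 8 h against 2 h it was 1 after quantile normalization, 3 with the trended prior, 2 without the 3 widest arrays and 3 to 5 with single arrays left out. The causes were not tested, and the shares of all probe sets called under these alternatives are not given here either.

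Same-numbered vehicle arrays deviated together in some pairs and not in others. The 3 pairs of replicate 1 had r = 0.374, 0.378 and 0.678, the other 4 ran from -0.434 to 0.0567, and 68 pairs of unlike number ran from -0.681 to 0.576. The numbers were not taken to pair the arrays, since not every pair was above 0.1. With the replicate number as a block, 0 members passed in the vehicle comparisons, and Gabarapl1 differed by 0.26 between 4 h and 2 h (0.33 without it), 0.029 between 8 h and 2 h (0.23 without it) and -0.23 between 8 h and 4 h (-0.10 without it). Arrays with no same-numbered array in another vehicle group add nothing to the blocked differences, so these rest on fewer arrays than the others.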
